A study of Mus musculus with 5 samples.

Results

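The genes described here are 10 members of the BCL2 family, which set whether a T cell survives or dies by the mitochondrial route of apoptosis. They were chosen by name from the 55487 genes of the count tables, as 5 survival genes (*Bcl2*, *Bcl2l1*, *Mcl1*, *Bcl2a1b* and *Bcl2a1d*), 3 BH3-only death genes (*Bcl2l11*, *Bbc3* and *Pmaip1*) and 2 effectors (*Bax* and *Bak1*). All 10 passed the filter on low counts, as did 13525 genes in all. RNA had been sequenced from mature CD4 single-positive (CD4 SP) thymocytes of C57BL/6J mice, 3 wild type controls (WT) and 2 mice of the genotype Tet2-/-Tet3flx/flxCD4cre (*Tet2/3* DKO), with 1 library per mouse. The mice were 21 to 30 days old. In the DKO mice *Tet2*, which encodes an enzyme that oxidises 5-methylcytosine in DNA, was mutated in every cell, and the floxed *Tet3* was removed by a Cre driven from *Cd4*, thus first in double-positive thymocytes. The label of the WT mice names no Cre or floxed allele. Cells were sorted as CD4+ HSA-low TCRb+ CD8- and negative for the CD1d tetramer, at a purity above 98%.

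The family works through binding between its proteins. BAX and BAK are the effectors that open the outer mitochondrial membrane and let cytochrome c out. BCL2, BCL-XL (*Bcl2l1*), MCL1 and A1 (*Bcl2a1* genes) hold the effectors in check. The BH3-only proteins BIM (*Bcl2l11*), PUMA (*Bbc3*) and NOXA (*Pmaip1*) block the survival proteins or act on the effectors, and NOXA binds above all MCL1 and A1. In the thymus, BCL-XL is known for keeping double-positive cells alive, BCL2 rises again in mature single-positive cells, MCL1 is needed throughout, and BIM is the main killer in negative selection. Much of this control acts on the proteins, through phosphorylation and degradation, which RNA counts do not measure.

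Libraries held 17607089 to 27267031 reads on genes. *Tet3* was lower in both DKO libraries, with 20.0 and 13.1 CPM (reads brought to 1 common library size by TMM scaling) against 43.8 to 52.5 in WT, a log2 fold change of -1.50. *Tet2* was not, at 91.5 and 58.6 against 52.4 to 57.8 CPM, and counts per gene do not show whether exons are missing. Of the 7 markers of mature CD4 SP cells, *Cd4*, *S1pr1* and *Ccr7* were lower in DKO cells, and the summed level was 9430 to 9780 CPM in WT and 7820 to 8800 in DKO. Of 6 genes of immature and double-positive cells 3 could be tested and none of them passed, with 168 to 199 CPM summed in WT and 122 to 162 in DKO. *Rag1* among them had 0 counts in all libraries, *Rag2* at most 1 and *Ptcra* at most 3. *Dntt* had 17.2 to 23.6 CPM in WT and 13.6 and 14.1 in DKO, and *Cd24a* 9.77 to 18.6 and 6.82 and 6.55. Most of the sum was *Cd1d1*, with 134 to 161 CPM in WT and 142 and 101 in DKO. DKO replicate 1 differed from the others in its reads on no annotated feature (5.70%, against 3.51% to 3.72%) and in sex-linked genes. It had 744 counts of *Xist* and 7 on 4 Y-linked genes, against at most 2 and at least 5101 elsewhere, although it was labelled male and WT replicate 1 female. The members and the family and pathway genes called are also given without it.

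The A1 genes come first, because their near identity decides what their counts mean. *Bcl2a1a*, *Bcl2a1b* and *Bcl2a1d* are copies on chromosome 9 that each have a coding sequence of 519 bases. *Bcl2a1b* and *Bcl2a1d* were identical at 98.8% of these bases, with 6 differences, and *Bcl2a1a* at 97.9% and 98.7% to them. The first 90 coding bases, read from GENCODE release 21 for GRCm38 and written 5′ to 3′, are shown because they hold 6 of the positions by which a read can be told apart, and those positions are in capitals:
Bcl2a1a: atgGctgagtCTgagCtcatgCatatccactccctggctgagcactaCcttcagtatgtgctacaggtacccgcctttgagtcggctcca
Bcl2a1b: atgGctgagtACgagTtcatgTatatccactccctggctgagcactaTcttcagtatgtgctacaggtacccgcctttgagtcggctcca
Bcl2a1d: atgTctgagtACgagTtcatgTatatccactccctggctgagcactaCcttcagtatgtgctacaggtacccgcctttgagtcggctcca
Of all windows of 50 bases along the transcript, 31.0% occurred in no other annotated gene for *Bcl2a1a*, 20.8% for *Bcl2a1b* and 20.5% for *Bcl2a1d*. With windows of 100 bases the shares were 56.5%, 43.2% and 45.3%. Reads that matched several places were left out of the counts, so the levels of these genes are too low by an unknown factor and the split between them is uncertain. *Bcl2a1b* also shared 49.1% of its exon bases with the annotated gene *Gm29094*, and reads there counted for neither. Windows that *Gm29094* also holds were not counted as unique to *Bcl2a1b*.

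Promoter sequences of RefSeq (GRCm38.p6) were found for 9 of the 10 members, all but *Pmaip1*. TET enzymes act on methylated cytosine, in mammals mostly at CG, so the CG dinucleotides in the 250 bases before the start were counted. The median of 32841 mouse promoters was 6. The promoter of *Bcl2* had 36, at percentile 97.8, while that of *Bcl2a1d* had 4, at percentile 44.4. Both are printed 5′ to 3′ with CG in capitals, because *Bcl2* was the member most split between the DKO libraries and *Bcl2a1d* the survival gene that rose. They lie at chr1:106714291-106714540 on the minus strand and chr9:88731851-88732100 on the minus strand:
Bcl2 promoter: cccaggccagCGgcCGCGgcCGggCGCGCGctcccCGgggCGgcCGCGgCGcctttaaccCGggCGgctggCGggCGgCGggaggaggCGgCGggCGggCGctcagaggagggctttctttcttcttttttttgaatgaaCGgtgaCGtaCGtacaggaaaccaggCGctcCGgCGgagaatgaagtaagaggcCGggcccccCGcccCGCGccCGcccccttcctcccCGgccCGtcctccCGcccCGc
Bcl2a1d promoter: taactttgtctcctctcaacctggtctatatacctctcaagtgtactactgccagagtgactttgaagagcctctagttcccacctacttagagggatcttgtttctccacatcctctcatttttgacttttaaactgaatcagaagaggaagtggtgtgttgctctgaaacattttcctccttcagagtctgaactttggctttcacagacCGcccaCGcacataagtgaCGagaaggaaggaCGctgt
Starts were those of RefSeq, which can lie inside the gene as GENCODE annotates it. This was so for *Bcl2a1d*, whose GENCODE gene begins at 88731914, and all 4 of its CG lie within that gene. The promoter of *Bcl2a1b* also had 4 CG and that of *Bcl2a1a* 3, and these windows overlap the GENCODE genes as well. *Mcl1* had 26, *Bax* 14 and *Bak1* 8, and the start sites of *Bcl2l11* had 24 and 30, those of *Bbc3* between 23 and 37, and those of *Bcl2l1* between 0 and 12. Motif letters were searched on both strands of the same windows. The FOXO letters GTAAACA occurred at a start of *Bcl2l11* and of *Bbc3*, in 2 of the 14 promoters that the 9 members have between them, and in 3.17% of all promoters. The *Bcl2l11* window, at chr2:128125788-128126037 on the plus strand, is shown with that match in capitals, since FOXO factors are known to switch on this gene:
Bcl2l11 promoter: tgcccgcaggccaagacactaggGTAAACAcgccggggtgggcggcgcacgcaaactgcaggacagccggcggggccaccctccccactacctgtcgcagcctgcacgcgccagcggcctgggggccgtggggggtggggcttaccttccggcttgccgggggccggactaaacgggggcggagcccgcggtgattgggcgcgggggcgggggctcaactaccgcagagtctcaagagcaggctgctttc
Loose NF-kB letters, GGG and CC with any 5 bases between them, occurred in 10 of the 14 and in 45.8% of all promoters, and in none of the *Bcl2a1* windows. A p53 half-site occurred in 1 of the 14, that of *Bax*, and in 7.13% of all promoters, while *Pmaip1* could not be searched. These are matches of letters within a short window and say nothing about binding.

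To ask how the mature CD4 SP cell is stocked with these genes, levels in WT were compared per length, as RPKM (CPM per kilobase of exon). *Mcl1* led, with 55.6 ± 5.54 RPKM (SD, n = 3), at percentile 91.0 of all tested genes. *Bax* followed with 39.4 ± 3.13, then *Bcl2a1d* with 19.8 ± 3.98, *Bcl2* with 16.4 ± 0.139 and *Bcl2l1* with 10.3 ± 0.469. *Bcl2a1d*, at 16.7 to 24.3, and *Bcl2*, at 16.2 to 16.5, nearly met, and their means differed by less than the SD of *Bcl2a1d*, whose level is also a lower limit. The remaining members stood far lower, *Bbc3* at 4.72 ± 0.357, *Bcl2a1b* at 1.51 ± 0.336, *Bcl2l11* at 1.24 ± 0.311, *Pmaip1* at 0.619 ± 0.0872 and *Bak1* at 0.574 ± 0.186. *Bcl2a1b* and *Bcl2l11* overlapped, as did *Pmaip1* and *Bak1*. *Mcl1* made up 50.3% to 58.0% of the summed RPKM of the survival genes, and *Bax* 83.7% to 85.8% of that of the death genes. Because A1 reads were lost, the share of *Mcl1* is an upper limit, and its lead over *Bcl2a1d* cannot be taken as settled.

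**Figure D1:**
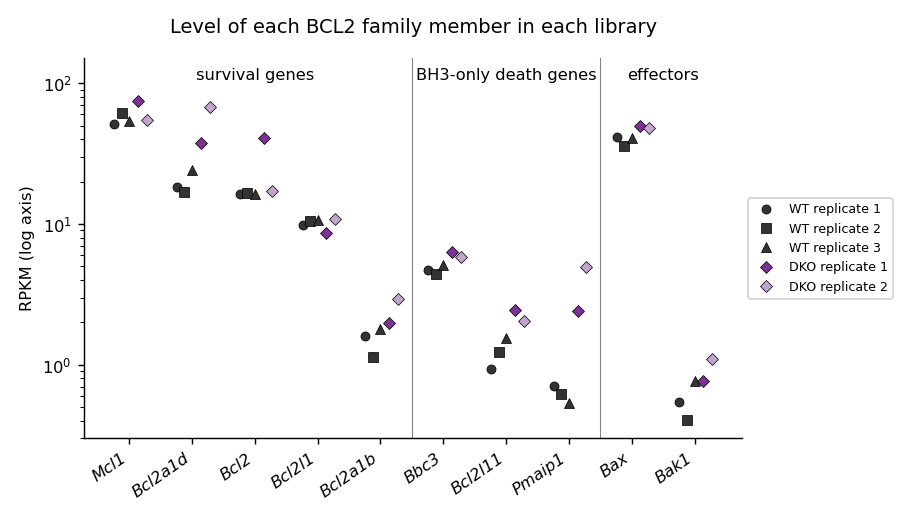
Level of each member in each library, in RPKM on a log axis, with 1 point per library, circles, squares and triangles for WT replicates 1 to 3 and diamonds for DKO replicates 1 (dark) and 2 (light). *Mcl1* and *Bax* are highest in WT, both DKO points lie above all WT points for 8 of the 10 genes, *Bak1* by no more than a tie, and *Bcl2* is far higher in DKO replicate 1 than in any other library.

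In the comparison of DKO with WT cells, 2 members rose and none fell. *Pmaip1* was 5.81-fold higher and *Bcl2a1d* 2.63-fold higher in DKO cells. These calls used an adjusted p under 0.01 (edgeR, quasi-likelihood, Benjamini-Hochberg over all tested genes), which 3.92% of all tested genes passed, 2.42% as higher and 1.5% as lower. DESeq2 called the same 2 members, and 6.91% of all genes it tested. Of the 10 members, 9 had a positive log2 fold change, as had 51.1% of all tested genes, and the median was 0.67, against 0.01 over all tested genes. Both DKO libraries lay above every WT library for 8 of the 10, as for 19.6% of all tested genes, and below every WT library for 0, against 19.5%. Among the 8, *Bak1* was at a tie, with 1.859 CPM in DKO replicate 1 and 1.858 in WT replicate 3, and without it the count is 7 of 9. The members were chosen with earlier results of these data known, so these counts describe them and do not test them as a group. A bulk library cannot tell a change in RNA per cell from a change in the share of cells that carry it.

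Among the survival genes, *Bcl2a1d* (ENSMUSG00000099974, chr9:88723285-88731914 on the minus strand) was the gene that rose. It encodes an A1 protein, a survival factor known to be switched on by antigen receptor and NF-kB signals. It had 408, 343 and 575 counts in WT, or 15.8, 14.5 and 20.9 CPM, and 682 and 1040 in DKO, or 32.5 and 58.2 CPM. The groups did not overlap, and DKO replicate 2 was the higher. The log2 fold change was 1.40 ± 0.24 (standard error) with an adjusted p of 0.0078 (edgeR). *Bcl2a1b*, which encodes nearly the same protein, had 34, 22 and 40 counts in the WT libraries against 34 and 43 in the DKO libraries, a log2 fold change of 0.67 whose 95% interval ran from -0.16 to 1.50. *Bcl2a1a*, the third copy, had 4, 2 and 0 counts in the WT libraries against 33 and 45 in the DKO libraries. It passed the low-count filter only through DKO, so its call (adjusted p = 0.00133, edgeR) could only be a rise. Its WT counts lay near the floor of 3, so the size of that rise is not given. Summed over the 3 genes, A1 reads came to 17.2, 15.5 and 22.4 CPM in WT and 35.7 and 63.1 CPM in DKO, and *Bcl2a1d* held 91.1% to 93.5% of them in every library.

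A1 genes are also expressed by myeloid and other activated cells, so markers of other cells are given beside this result. The summed level of 4 myeloid markers was 7.40 to 13.2 CPM in WT and 22.0 to 50.1 in DKO, and none of the 4 passed the test. The most abundant, *Lyz2*, had 10.8, 10.4 and 5.83 CPM in WT and 18.6 and 42.5 in DKO. The 3 markers of NK and iNKT cells were all called as higher, and their sum went from 2.19 to 3.64 CPM in WT to 20.3 to 34.2 in DKO. For *Ncr1* among them no WT library held more than 1 read, whereas DKO replicate 1 held 31 and DKO replicate 2 held 40. *Ncr1* thus passed the low-count filter only through DKO, and its call could only be a rise. Of 3 gamma-delta markers 1 rose, with 17.0 to 20.3 CPM summed in WT and 77.7 to 119 in DKO, and the defining gene *Trdc* was at 11.7 to 16.6 and 15.3 to 18.3 CPM. The gene that rose was *Tcrg-C1*, at 2.73 to 4.68 CPM in WT and 59.2 and 103.3 in DKO, and it made up the rise of the sum. *Sox13*, the other marker, had 0.947 to 1.08 CPM in WT and 0.238 and 0.224 in DKO, both below all WT libraries (log2 fold change -2.12, adjusted p = 0.0361, edgeR). DKO replicate 2 had the higher sum of these 3 lists, as it had for *Bcl2a1d* and *Pmaip1*. The CD8 lineage genes summed to 68.8 to 77.1 CPM in WT and 34.3 to 35.8 in DKO. *Cd8b1* fell by 1.29 on the log2 scale (adjusted p = 0.000168, edgeR), while *Cd8a* had a log2 fold change of 0.94 (adjusted p = 0.128, edgeR). The sort had gated on TCRb and against CD8 and the CD1d tetramer. B cell markers were at 1.76 to 3.24 CPM and erythroid ones at no more than 0.168. The part of such cells in the rise of *Bcl2a1d* or *Pmaip1* was not tested.

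*Bcl2*, the founding survival gene (ENSMUSG00000057329, chr1:106538178-106714274 on the minus strand), was the most divided member. It had 3860, 3588 and 4082 counts in WT, which came to 149, 151 and 149 CPM. In DKO it had 7817 and 2797 counts, or 373 and 157 CPM. WT libraries thus differed by under 3 CPM, DKO replicate 2 stood just above them, and DKO replicate 1 stood 2.38-fold above DKO replicate 2. The size of that split lay at percentile 99.5 of genes with at least 50 CPM. Over both libraries the log2 fold change was 0.82 ± 0.27 (standard error), with an interval from 0.21 to 1.44 and an adjusted p of 0.104 (edgeR). It was 0.06 without DKO replicate 1, and 1.30 and past the threshold without DKO replicate 2, where the lone library was assumed to vary like the others. DKO replicate 1 is the library with *Xist* counts and the larger share of reads on no feature. The part of either in its *Bcl2* level was not tested.

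*Mcl1* and *Bcl2l1* had the smallest log2 fold changes of the members. *Mcl1*, whose short-lived protein the T cell lineage depends on, had 175, 211 and 183 CPM in WT and 254 and 187 in DKO, and the groups overlapped. Its log2 fold change was 0.22 with an interval from -0.09 to 0.52 (adjusted p = 0.398, edgeR). *Bcl2l1*, which encodes BCL-XL, had 44.8, 47.9 and 49.0 CPM in WT and 39.4 and 50.1 in DKO. It was the member with a negative log2 fold change, -0.08, and an interval from -0.37 to 0.20 (adjusted p = 0.770, edgeR). For both genes a change of 1 on the log2 scale lay outside the interval. Without DKO replicate 1 their signs turned, to -0.02 for *Mcl1* and 0.08 for *Bcl2l1*.

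Of the BH3-only genes, *Pmaip1* (ENSMUSG00000024521, chr18:66458533-66465565 on the plus strand) rose most of all members. NOXA is known as a target of p53 and of stress pathways and as the BH3-only protein that drives MCL1 to degradation. Its counts were 50, 40 and 40 in WT and 137 and 241 in DKO, or 1.93, 1.69 and 1.46 CPM against 6.53 and 13.5. The lowest DKO library was well above the highest WT library, and the DKO libraries differed about as much as for *Bcl2a1d*, again with replicate 2 higher. The log2 fold change was 2.54 ± 0.36 (standard error) with an adjusted p of 0.00277 (edgeR). The level remained low, at 2.39 and 4.93 RPKM in DKO, below *Bbc3* in each of these libraries.

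*Bcl2l11*, which encodes BIM, had 7.50, 9.90 and 12.5 CPM in WT and 19.7 and 16.3 in DKO. The groups were apart, and here DKO replicate 1 was the higher. Its log2 fold change was 0.85 (standard error 0.22), and its adjusted p of 0.0420 (edgeR) was past a threshold of 0.05, which 8.67% of all tested genes passed, but not past 0.01. DESeq2 gave an adjusted p of 0.0109. Without DKO replicate 1 the log2 fold change was 0.70 and its adjusted p of 0.0572 (edgeR) was not past 0.05 either, nor was it without WT replicate 1 (0.155) or 2 (0.158), whereas without DKO replicate 2 it was 0.00623. *Bbc3*, a p53 target that encodes PUMA, had 9.94, 9.31 and 10.8 CPM in WT and 13.4 and 12.4 in DKO. These values did not overlap either, but the difference was small, a log2 fold change of 0.36 (interval -0.01 to 0.74, adjusted p = 0.226, edgeR).

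Neither effector passed the test. *Bax* had 65.6, 56.4 and 64.2 CPM in WT and 77.9 and 75.8 in DKO, a log2 fold change of 0.31 ± 0.10 (standard error) with an adjusted p of 0.110 (edgeR). The DKO libraries were almost equal and both above WT. *Bak1* had 34, 23 and 51 counts in the WT libraries against 39 and 47 in the DKO libraries, which after scaling came to 1.32, 0.969 and 1.86 CPM against 1.86 and 2.63. WT replicate 3 and DKO replicate 1 were indistinguishable, and the interval of the log2 fold change, from -0.19 to 1.52, was wide. Exons of *Bak1* shared 25.5% of their bases with *Ggnbp1*, and those of *Bax* 12.2% with *Gm45808*, where reads were dropped as ambiguous in every library.

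**Figure D2:**
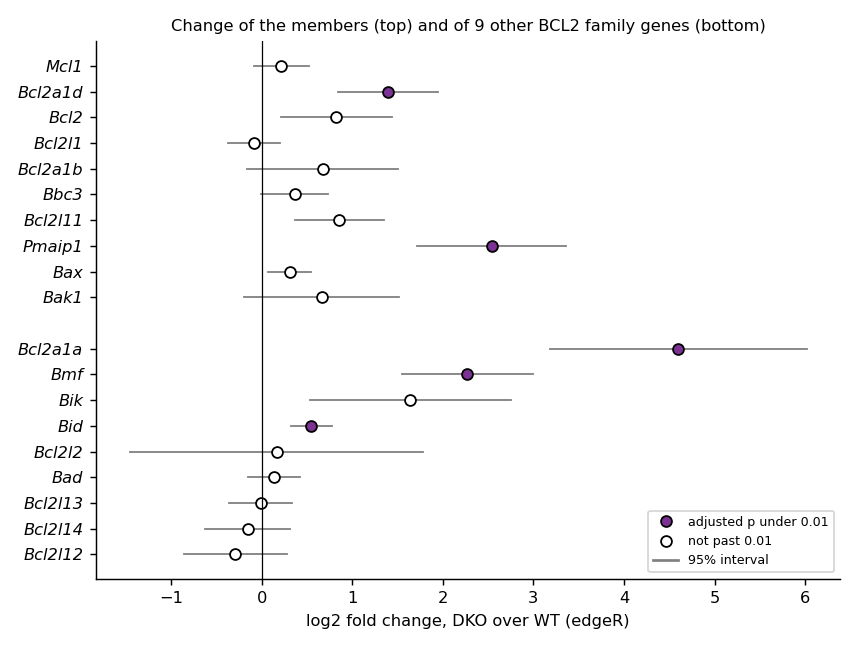
Log2 fold change of DKO over WT for the 10 members (top) and 9 other tested family genes (bottom). Points are edgeR estimates, bars 95% intervals, and filled points have an adjusted p under 0.01, which are *Bcl2a1d* and *Pmaip1* among members and *Bcl2a1a*, *Bmf* and *Bid* among the others. *Bcl2a1a* had at most 4 counts in WT and passed the low-count filter only through DKO. How far right it lies depends on the small count added before taking logs.

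The call of *Pmaip1* and *Bcl2a1d* rested on all 3 WT libraries. With any WT library left out neither passed 0.01, although their log2 fold changes stayed at 2.44 to 2.65 and 1.29 to 1.58. Without DKO replicate 1 both passed, at 2.99 and 1.76, and without DKO replicate 2 both passed, at 1.93 and 0.91. Without a WT library 110 to 152 genes passed in all, against 530 with all libraries. Over 12 alternatives the adjusted p of *Pmaip1* ranged up to 0.0343 and that of *Bcl2a1d* up to 0.0640, which with robust moderation was also not past 0.01. The members fell into those higher in DKO replicate 1 (*Bcl2*, *Mcl1*, *Bcl2l11*, *Bbc3* and *Bax*) and those higher in DKO replicate 2 (the other 5).

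**Figure D3:**
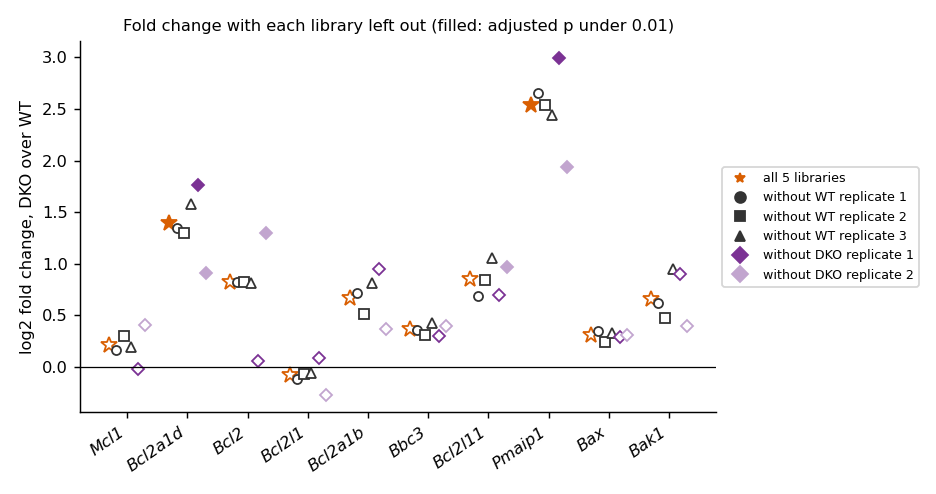
Log2 fold change of DKO over WT for each member, with all 5 libraries (star) and with each library left out (other symbols, black for WT and purple for DKO). Symbols are filled where the adjusted p was under 0.01. *Bcl2* lies at 0.06 without DKO replicate 1 and at 1.30 without DKO replicate 2, whereas *Bbc3* keeps within 0.30 to 0.42 and *Bax* within 0.24 to 0.35.

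How far the balance between death and survival transcripts moved was asked with ratios of read counts within a library, which do not depend on scaling between libraries. Of 15 ratios of a death gene to *Bcl2*, *Mcl1* or *Bcl2l1*, 13 were higher on average in DKO, and in 8 both DKO libraries lay above all WT libraries. The 15 ratios are built from 8 genes and so are not independent, and the 5 over 1 survival gene share that gene's change. The 13 became 9 without DKO replicate 2, 11 without WT replicate 2 and 15 without DKO replicate 1. Of all other tested genes, 62.6% had a higher mean ratio to *Bcl2l1* in DKO, 26.2% to *Mcl1* and 10.1% to *Bcl2*, and both DKO libraries lay above all WT libraries for 19.3%, 8.01% and 2.96%. No test was run, and an exact permutation test of 3 against 2 libraries cannot give a p below 0.1. That count covers these 3 survival genes and leaves out *Bcl2a1d*, the survival member that rose. Taken against *Bcl2a1d*, a comparison added after the data were seen, 4 of 5 ratios were lower on average in DKO, as were 95.3% of those of all other tested genes. Those of *Bax*, *Bbc3* and *Bak1* lay below all WT libraries in both DKO libraries, that of *Bcl2l11* overlapped and that of *Pmaip1* lay above. Of all other tested genes, 83.1% lay below in this way and 2.03% above. *Bax* reads came to 415%, 390% and 306% of *Bcl2a1d* reads in WT and to 239% and 130% in DKO, with *Bcl2a1d* reads too few as described above. All 5 ratios to *Bcl2l1* were apart. *Bcl2l11* reads came to 16.8%, 20.7% and 25.5% of *Bcl2l1* reads in WT and 50.1% and 32.5% in DKO, and *Bax* reads to 146%, 118% and 131% in WT and 198% and 151% in DKO. Against *Mcl1*, 2 ratios were apart, those of *Bcl2l11* and *Pmaip1*. *Pmaip1* reads, whose protein pairs with MCL1, came to 1.12%, 0.808% and 0.805% of *Mcl1* reads in WT and to 2.58% and 7.22% in DKO.

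Of the 5 ratios to *Bcl2*, 4 lay below the WT mean in DKO replicate 1 and above it in DKO replicate 2. *Bax* reads came to 43.9%, 37.3% and 43.2% of *Bcl2* reads in WT, to 20.9% in DKO replicate 1 and to 48.5% in DKO replicate 2. *Bbc3* did likewise, with 6.17% to 7.29% in WT, 3.60% in DKO replicate 1 and 7.95% in DKO replicate 2. The ratio of *Pmaip1* to *Bcl2* was the exception of the 5, higher in both, with 0.992% to 1.31% in WT and 1.76% and 8.63% in DKO.

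**Figure D4:**
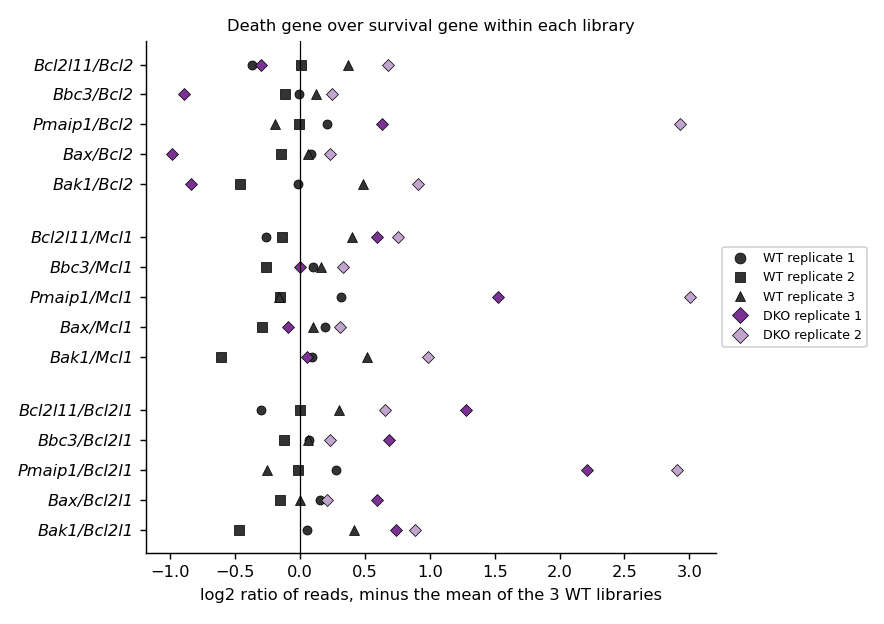
Log2 ratio of reads of a death gene to reads of a survival gene within each library, minus the mean of the 3 WT libraries, grouped by survival gene, with the same symbols as in the plot of levels. Both DKO points lie right of all WT points for all 5 ratios to *Bcl2l1*, for 2 of 5 to *Mcl1* and for 1 of 5 to *Bcl2*.

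Both the summed survival transcripts and the summed death transcripts were higher in each DKO library than in any WT library. The 5 survival genes together had 97.2, 106.6 and 106.6 RPKM in WT and 163.1 and 153.1 in DKO, and the 5 death genes 48.5, 42.4 and 48.7 in WT and 61.3 and 62.0 in DKO. The ratio of the death sum to the survival sum was 0.451 ± 0.0506 over the 3 WT libraries and 0.390 ± 0.0205 over the 2 DKO libraries (SD). With the A1 levels as counted the ranges overlapped, but these levels are too low. With each A1 level divided by its share of unique windows, a setting chosen after the data were seen, both DKO libraries lay below all WT libraries. The ratios were then 0.399, 0.331 and 0.352 in WT and 0.290 and 0.260 in DKO with windows of 100 bases. With windows of 50 bases they were 0.278, 0.241 and 0.235 in WT and 0.194 and 0.146 in DKO. The division gives more weight in every library to *Bcl2a1d*, the survival member that rose. The separation thus draws on that same rise and is no added evidence on the balance. The makeup of the survival sum differed between the DKO libraries. *Mcl1* held 45.5% and 35.8% of it in DKO replicates 1 and 2, less than in any WT library. In DKO replicate 1 *Bcl2* held 24.9%, against 15.2% to 16.8% in WT, whereas in DKO replicate 2 *Bcl2a1d* held 44.0%, against 15.7% to 22.8% in WT. On the death side *Bax* still held 80.5% and 77.6%.

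Of 13 other family genes, 9 could be tested and 3 rose, while none fell (median log2 fold change 0.16). Of all tested genes, 2.42% rose and 1.5% fell. Of the 3, *Bcl2a1a* passed the low-count filter only through the DKO libraries, so it could be called only as a rise. *Bmf*, a BH3-only gene whose product senses loss of attachment and cytoskeletal stress, had 78, 39 and 38 counts in the WT libraries against 172 and 204 in the DKO libraries. Its log2 fold change was 2.27 ± 0.32 (standard error) with an adjusted p of 0.00261 (edgeR). *Bid*, which links death receptors to mitochondria once cut by caspase-8, had 45.0, 43.2 and 42.9 CPM in WT and 61.4 and 66.2 in DKO. Its log2 fold change of 0.55 was small but even between libraries, with an adjusted p of 0.0099 (edgeR) just past the threshold. *Bid* passed in 5 of 12 alternatives, and not without the filter (0.0234), with legacy moderation (0.0103), with the replicate block (0.0526), without DKO replicate 2 (0.0152) or without any WT library (0.0502 to 0.0591). *Bcl2a1a* was the other gene that rose. Without DKO replicate 1 the log2 fold changes were 2.50 for *Bmf*, 0.60 for *Bid*, 3.02 for *Cdkn1a* and 1.21 for *Gfi1*, all past 0.01, the last 2 being pathway genes given further on. *Bcl2a1a* passed without it too (adjusted p = 5.3e-05, edgeR). The calls held less well without a WT library. *Bmf* did not pass without WT replicate 2 or 3 (adjusted p = 0.0344 and 0.0258, edgeR) or with the replicate block (0.0184), and *Bcl2a1a* likewise did not (0.0264, 0.0194 and 0.0101). *Bik*, a BH3-only gene, had 7, 22 and 14 counts in the WT libraries against 29 and 39 in the DKO libraries (log2 fold change 1.64, adjusted p = 0.0771, edgeR). *Bad*, *Bcl2l2*, *Bcl2l12*, *Bcl2l13* and *Bcl2l14* had log2 fold changes between -0.29 and 0.16. *Bok* had 2 counts in every WT library and 0 and 22 in DKO, *Bcl2l15* had at most 5 in any library, and *Bcl2l10* and *Hrk* had 0 in all.

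Downstream of the mitochondria, none of 13 genes of caspases, apoptosome and their inhibitors passed the test. Their median log2 fold change was -0.07, and 1 of them passed an unadjusted p under 0.05, as did 23% of all tested genes. DESeq2 called 0 of them. The largest changes were -0.28 for *Casp9*, the initiator caspase of this route, -0.24 for the inhibitor *Birc2*, and 0.19 for *Cycs*, which encodes the cytochrome c that mitochondria release. In the death receptor branch, none of 9 genes passed 0.01, 3 had an unadjusted p under 0.05 and DESeq2 called 2, and the median log2 fold change was 0.02. The death receptor *Fas* had 134 to 140 CPM in WT and 104 and 89.7 in DKO (log2 fold change -0.49, adjusted p = 0.0147, edgeR). The ligand *Tnfsf10*, which encodes TRAIL, had 5.73 to 7.04 in WT and 11.1 and 13.4 in DKO (0.95, adjusted p = 0.0148, edgeR). *Cflar*, the inhibitor of caspase-8, had a log2 fold change of -0.23.

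Of 13 tested regulators of the family, 1 passed the edgeR test and rose, 2 had an unadjusted p under 0.05 and DESeq2 called 2, and the median log2 fold change was 0.05. *Cdkn1a*, a p53 target that encodes the cell cycle inhibitor p21, had 16, 20 and 14 counts in the WT libraries against 80 and 95 in the DKO libraries (log2 fold change 2.79, adjusted p = 0.00169, edgeR). It did not pass 0.01 when any WT library was left out (0.0148 to 0.0199). In the same list *Trp53*, which encodes p53, and *Mdm2* had log2 fold changes of 0.048 and 0.0043 (adjusted p = 0.778 and 0.988, edgeR). Both were named after their values were seen. *Nr4a1* is induced by strong antigen receptor signals and able to act on BCL2 at the mitochondrion. It had 182 to 220 CPM in WT and 157 and 107 in DKO (-0.59, adjusted p = 0.0524 with edgeR and 0.00463 with DESeq2). The log2 fold change of *Nr4a1* was -0.90 without DKO replicate 1 and -0.35 without DKO replicate 2. Its relative *Nr4a3* had 2.44 to 5.03 CPM in WT and 3.05 and 2.01 in DKO, and the groups overlapped (-0.53, adjusted p = 0.467, edgeR). Among 16 genes of cytokine survival signalling, with a median log2 fold change of -0.11, 1 passed the edgeR test, the repressor *Gfi1*, which rose from 9.69 to 11.7 CPM in WT to 26.4 and 25.4 in DKO (1.24, adjusted p = 0.00114, edgeR). *Gfi1* did not pass when any WT library was left out (0.0116 to 0.0142) or with the replicate block (0.0106). *Pik3cd* and *Stat5a* had log2 fold changes of -0.61 and -0.55 (adjusted p = 0.0605 and 0.0208, edgeR). In this list 7 of 16 genes had an unadjusted p under 0.05, as had 23% of all tested genes. DESeq2 called 5, *Gfi1* and *Pim2* as higher and *Pik3cd*, *Stat5a* and *Il7r* as lower, and 6.91% of all genes it tested. *Pim2* and *Il7r* were named after their values were seen. None of 7 genes of MCL1 turnover passed the test and DESeq2 called 0 (median 0.04), with log2 fold changes of 0.31 for the ligase *Huwe1*, 0.21 for *Fbxw7* and -0.20 for the kinase *Gsk3b*, and 1 of 7 had an unadjusted p under 0.05.

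**Figure D5:**
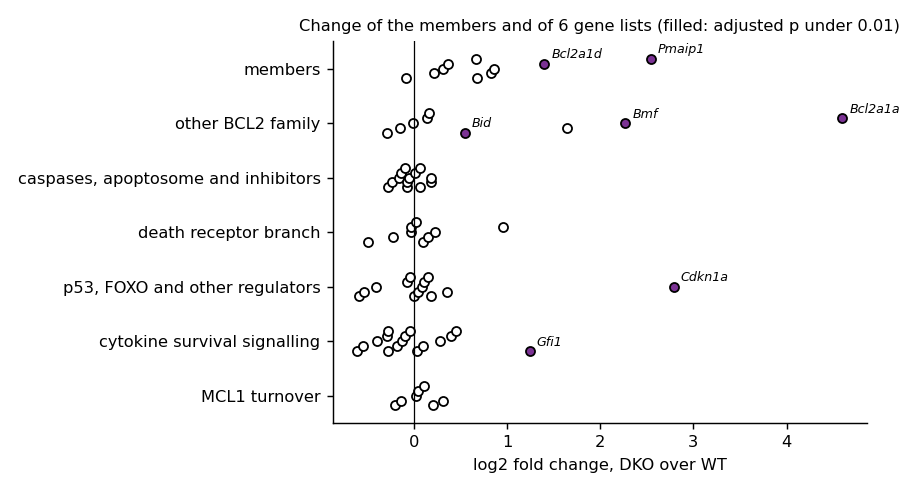
Log2 fold change of DKO over WT for each tested gene of the members and of 6 lists, with 1 point per gene, spread vertically only to keep points apart. Filled points have an adjusted p under 0.01, as had 3.92% of all tested genes, and carry the gene's symbol. They are 2 of 10 members, 3 of 9 other family genes, 1 of 13 regulators and 1 of 16 cytokine genes. *Bcl2a1a* among them passed the low-count filter only through DKO. The lists were chosen with earlier results of these data known.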

How the data were processed

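Total RNA of sorted CD4 SP cells was made into SMART-seq v4 and Nextera XT libraries, without molecular identifiers, and sequenced. Per the submitters' processing notes, bcl2fastq 2.20.0, fastp 0.21.0, STAR 2.7.5a and DESeq2 were used with mm10 (GRCm38). The values the authors deposited are raw counts per gene and library, with multimapping and ambiguous reads left out. The counts without regard to strand were used, since the kit does not mark strand. Deposited clonotype tables were not used here. Symbols and exon lengths came from GENCODE M21, which matched 55141 of 55487 identifiers.

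Genes were tested with edgeR 4.0.16 (quasi-likelihood, newer moderation, TMM, filterByExpr by genotype, Benjamini-Hochberg adjustment, threshold 0.01, as used in the study) in R 4.3.3. Standard errors are the log2 fold change over the square root of F, and intervals are 95%. DESeq2 1.42.0, RLE scaling, no filter, legacy and robust moderation, a threshold of 0.05, a replicate block and leaving out each library were the alternatives. CPM and RPKM were computed from these counts with TMM-scaled library sizes, ratios with 0.5 reads added to each gene. Figures were drawn with matplotlib in Python 3.11.15. The tests were tried on simulated counts. A marker sum is the sum of the CPM of its genes. Of 13 caspase, 9 death receptor, 14 regulator, 16 cytokine and 7 MCL1 turnover genes, those named were past the threshold or, where fewer than 3 were, had the largest changes at a mean of at least 1 CPM. All family genes were named. Of the genes first listed, 2 are not reported here. Members and lists were chosen with earlier results of these data known.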

Additional observations from a re-analysis of the deposited data

How the results depend on the processing

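Depth limits the lowest members: with 22 to 51 counts per WT library, the log2 fold changes of *Bcl2a1b* and *Bak1* carried standard errors of 0.37 and 0.38. *Pmaip1* and *Bcl2a1d* were the 2 members called under RLE scaling, DESeq2, no filter and legacy moderation. Robust moderation called 1 member, *Pmaip1*, and a threshold of 0.05 called 3. With a library left out 0 to 4 members passed, 0 without any of the WT libraries. Of the other family and pathway genes 5 passed, against 12 with DESeq2, 9 at 0.05, and 0 to 15 with a library left out. Of these 5, *Bid* was lost without the filter, with legacy moderation, with the block and without DKO replicate 2. Without WT replicate 1 *Bcl2a1a* and *Bmf* passed, and without WT replicate 2 or 3 none of the 5.

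The replicate numbers of the labels name different mice, and the differences between replicates 1 and 2 of each genotype correlated at r = 0.0193 across 13525 genes, so the numbers gave no pairing. With the replicate block the same 2 members passed and 1 other gene, *Cdkn1a*, and 358 genes in all, while *Bcl2l2*, with at most 16 counts, turned to -0.31.

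With each library left out the log2 fold change of *Bcl2l1* ranged from -0.2773 to 0.0816, *Mcl1* from -0.0229 to 0.403, *Casp9* from -0.6374 to 0.0201, *Bcl2l2* from -0.47 to 0.53 and *Bcl2l13* from -0.11 to 0.14. The mean log2 ratios of 6 pairs changed sign with the library left out, *Bcl2l11* to *Bcl2* from -0.3001 to 0.6746, *Bbc3* to *Bcl2* from -0.8946 to 0.2486, *Bbc3* to *Mcl1* from -0.0015 to 0.3285, *Bax* to *Bcl2* from -0.9852 to 0.2282, *Bax* to *Mcl1* from -0.0921 to 0.3081, and *Bak1* to *Bcl2* from -0.8389 to 0.9097. The cause was not tested.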
